A study of Mus musculus with 6 samples.

Results

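Glycolytic enzymes and their isoforms were followed between S1 and S3, a pair of red cell precursor subsets of mouse fetal liver. The enzymes were Hk1, Hk2, Gpi1, Pfkl, Pfkp, Aldoa, Pgam1, Eno1, Pkm and Ldha. A gene entered through every array probe set (a group of short probes for a transcript) that had that gene as its only symbol in the platform annotation. This gave 17 probe sets for 8 of the 10 genes, among 18193 genes with a probe set of their own. Gpi1 and Eno1 are not analysed here. Both subsets came from Balb/C embryos, were sorted by CD71, Ter119 and lineage staining, and were read on 3 arrays each. S1 holds the earlier and S3 the later cells of this sorting scheme, and neither carried a treatment or an engineered allele. Cells were sorted on 3 days, and each array holds one day's sort of its subset. On embryo age the labels conflict, since one label gives day 12.5 for S1 and day 13.5 for S3 while another gives day 13.5 for every array. Stage and embryo age cannot be told apart where the former label holds. Values are on a log scale as the authors scaled them, taken here as log2 because no source names the base, and every fold below rests on that. Their precision is limited by having 3 arrays per subset.

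Glycolysis turns glucose into pyruvate with a net gain of ATP. Hexokinase traps glucose in the cell, phosphofructokinase commits it to the pathway, and pyruvate kinase makes the last ATP. Several steps have paralogous enzymes: Hk2, Pfkp and Pkm are typical of growing cells, while mature red cells, which have no mitochondria and live on glycolysis alone, rely on Hk1, on Pfkl and Pfkm subunits and on the red cell form encoded by Pklr.

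The arrays differed in how well they read the 5' ends of transcripts. The 5' probe set of the actin control read lower than the 3' one by -2.59 to -2.08 (log2) on 3 arrays, called short (S1 replicates 1 and 2, S3 replicate 2), and by only -0.56 to -0.45 on the other 3, called long. Of the 17 probe sets of the enzymes, 15 read higher on the long than on the short arrays within both subsets, as did 58.0% of all probe sets tested (16 of the 17 were tested). Among the brightest probe sets it was 7 of 8 genes, against 56.3% of all genes. Changes are therefore also given with this class as a block, and its part in each change without the block was not tested. Of 8 listed erythroid markers 7 were measured, all 7 were above background on every array, and 3 (Slc4a1, Alas2 and Rhd) rose. Among markers of other cells, the summed hepatocyte signal (7 of 8 measured, 5 above background on every array) was 8.11 to 8.38 in S1 and 7.94 to 9.96 in S3. The summed megakaryocyte signal (6 of 7 measured, all 6 above background on every array) was 6.32 to 7.46 in S1 and 8.47 to 8.57 in S3, without overlap, and Vwf rose (2.72, limma adjusted p = 0.0244). Macrophage markers summed to 4.92 to 6.89 in S1 and 5.26 to 6.51 in S3 (8 of 8 measured, with Adgre1 and Cd14 above background on no array). Granulocyte markers summed to 4.28 to 6.63 and 3.62 to 7.16, with 4 of 8 above background on no array and Prtn3 lower in S3, and stromal and endothelial markers (6 of 6 measured, 1 above background on every array) to 4.61 to 5.10 and 4.93 to 5.21. The part of these cells in the results was not tested.

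S3 was set against S1 to see which enzyme genes differ between these stages of red cell formation. No enzyme gene rose, and the falls were very unequal. Hk2 fell 18.8-fold, Pfkp 4.83-fold, Pkm 2.92-fold and Pgam1 2.44-fold, while Aldoa fell only 1.36-fold. Hk1, Ldha and Pfkl were not called. In the limma fit over 11959 genes, with Benjamini-Hochberg adjustment and each gene read by its brightest probe set, 5 of the 8 enzyme genes fell, 0 rose and 3 did not pass. Without adjustment 7 were lower and 0 higher, against 2896 and 638 of all 11959 genes. With adjustment 12.8% of all genes tested fell and 2.53% rose. The 8 genes had a median log2 change of -1.0, against -0.33 for all genes. In 7 of the 8 genes every S3 array lay below every S1 array, as it did in 29.5% of all genes. With the class block 7 of the 8 genes fell and 0 rose, against 41.2% and 5.81% of all genes. With the block and median centring together 4 fell and 0 rose, against 2013 and 1024 of all 11959 genes. Hk1, Aldoa and Ldha were then not called. The enzymes were chosen with earlier results of these data known, so none of these comparisons with all genes is independent of that choice. In sorted pools of cells, fewer cells of a type and less RNA per cell cannot be told apart.

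**Figure D1:**
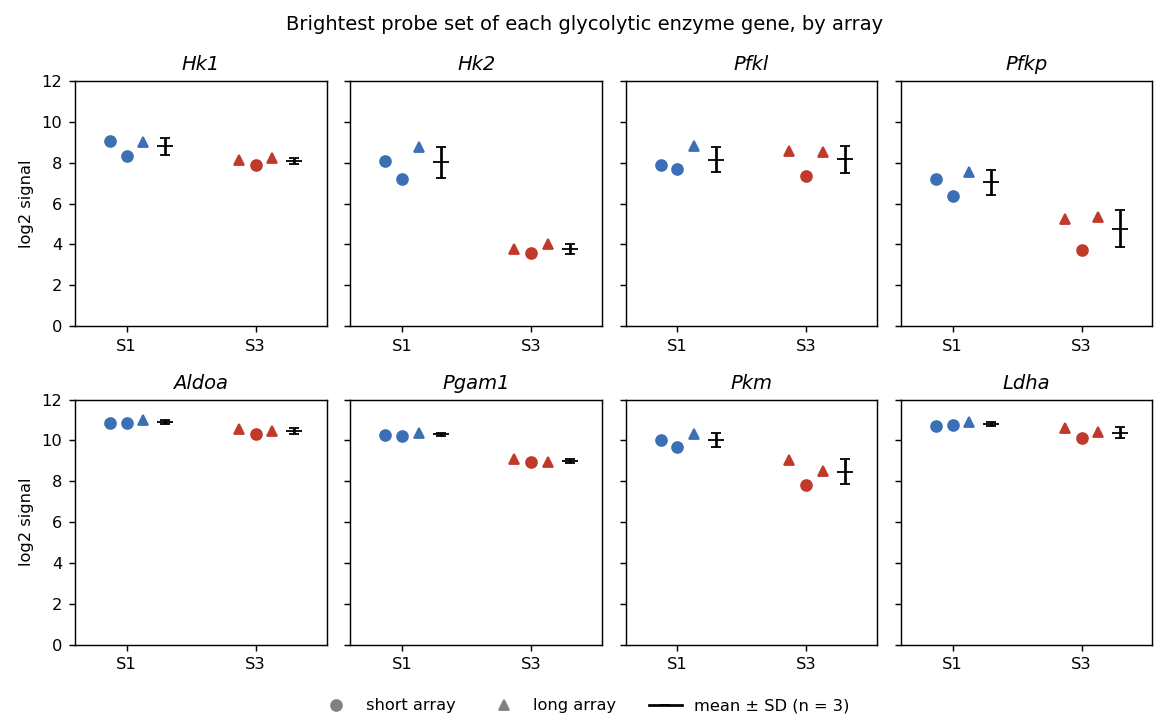
Log2 signal of the brightest probe set of each of the 8 enzyme genes on every array, S1 in blue and S3 in red, with circles for short and triangles for long arrays and the mean ± SD (n = 3 arrays) beside the points. Hk2 drops from a mean of 8.01 to 3.78 and Pgam1 from 10.29 to 9.0, while the points of Pfkl overlap.

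Hk2, the inducible hexokinase of proliferating cells, changed most. Its one probe set (1422612_at) read 8.07, 7.20 and 8.76 on the S1 arrays and 3.76, 3.56 and 4.01 on the S3 arrays. The lowest S1 array stood far above the highest S3 array, and all 6 were above background. The change was -4.24 ± 0.47 (log2, SE; limma adjusted p = 0.00315), with -4.87 within the long arrays and -4.08 within the short ones. Relative to the median of all genes it was -3.90. Hk1, the hexokinase of mature red cells, read 9.08, 8.32 and 9.0 in S1 and 8.12, 7.91 and 8.21 in S3 (probe set 1437974_a_at). Its subsets did not overlap, but the gap was small beside the spread of S1. The change of -0.72 ± 0.26 did not pass (limma adjusted p = 0.114), and it passed with the class block (-0.81 ± 0.20, limma adjusted p = 0.00666) but not with that block and median centring (-0.36, adjusted p = 0.396). A dimmer Hk1 probe set read 5.66, 5.36 and 7.11 in S1 and 6.19, 4.57 and 6.23 in S3. Here the subsets overlapped, and long arrays read higher than short ones by 1.62 on average, more than the change of -0.38 ± 0.66.

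The phosphofructokinase genes also parted. Pfkp, the platelet type, read 7.22, 6.35 and 7.53 in S1 and 5.22, 3.73 and 5.34 in S3 (probe set 1416069_at). All S3 arrays lay lower, the short one lowest. The change was -2.27 ± 0.56 (limma adjusted p = 0.0347), or -2.65 ± 0.31 with the class block (limma adjusted p = 9.04e-05). This call was lost without S1 replicate 1 (-2.18, adjusted p = 0.115), S1 replicate 2 (-2.61, adjusted p = 0.0640), S1 replicate 3 (-2.02, adjusted p = 0.0814), S3 replicate 1 (-2.50, adjusted p = 0.0704) or S3 replicate 3 (-2.56, adjusted p = 0.0685), and with the mean over its probe sets (-1.55, adjusted p = 0.260). The second Pfkp probe set was above background on 2 arrays of each subset, and the dimmest, on 1 S1 array and 0 S3 arrays, was not tested. Pfkl, the liver type that is also part of the red cell enzyme, read 7.91, 7.70 and 8.83 in S1 and 8.57, 7.37 and 8.53 in S3 (probe set 1439148_a_at). Its values followed the long and short arrays (a mean difference of 1.11) rather than the subsets. The change was 0.01 ± 0.44 (limma adjusted p = 0.990), and -0.36 ± 0.15 with the class block (limma adjusted p = 0.0747), so its sign was not settled. Its other probe sets changed by 0.34 ± 0.64 and 0.74 ± 0.42 and were not called either.

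Of the enzymes between these steps and the end of the pathway, Pgam1, the phosphoglycerate mutase, changed with the least scatter. It read 10.28, 10.21 and 10.38 in S1 and 9.11, 8.93 and 8.96 in S3 (probe set 1426554_a_at). Arrays of a subset lay within 0.2 of each other and the subsets were far apart. The change was -1.29 ± 0.12 (limma adjusted p = 0.00285), and it missed the threshold only with median centring among 20 other fits (-1.06, adjusted p = 0.0558). Aldoa, the main aldolase outside the liver, read 10.83, 10.87 and 11.00 in S1 and 10.58, 10.33 and 10.46 in S3 (probe set 1434799_x_at). The fall was small but larger than the scatter within either subset (-0.44 ± 0.09, limma adjusted p = 0.0215). Of its 5 probe sets the 3 brightest were called in the fit over probe sets (-0.44 to -0.56), the fourth read -0.49 ± 0.22 and the dimmest -0.06 ± 0.41. All 5 carry the suffix with which the manufacturer marks probes that can also bind other transcripts. Relative to the median of all genes the change of Aldoa was -0.11, or 0.04 with the class block and -0.33 with quantile normalization, so it depended on the scaling. It was not called with median centring (-0.21, adjusted p = 0.748), the trimmed mean (-0.17, adjusted p = 0.589), the class block with median centring (-0.05, adjusted p = 0.913) or no intensity trend (adjusted p = 0.255), without S1 replicate 1 (-0.48, adjusted p = 0.0582), S1 replicate 2 (-0.46, adjusted p = 0.0707), S1 replicate 3 (-0.39, adjusted p = 0.0609) or S3 replicate 3 (-0.44, adjusted p = 0.0738), or with the mean over its probe sets (-0.41, adjusted p = 0.180).

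At the end of the pathway, Pkm, which encodes the M1 and M2 pyruvate kinases by alternative splicing, read 10.04, 9.66 and 10.32 in S1 and 9.05, 7.83 and 8.51 in S3 (probe set 1417308_at). The subsets did not overlap, and the probe set does not tell M1 from M2 here. The change was -1.54 ± 0.32 (limma adjusted p = 0.0209), or -1.78 ± 0.18 with the class block. It missed the threshold without S1 replicate 1 (-1.53, adjusted p = 0.0813), S1 replicate 2 (-1.72, adjusted p = 0.0526) or S3 replicate 3 (-1.57, adjusted p = 0.0658), and with no intensity trend (adjusted p = 0.0545). Ldha, the lactate dehydrogenase subunit of glycolytic tissues, read 10.71, 10.75 and 10.92 in S1 and 10.63, 10.11 and 10.40 in S3 (probe set 1419737_a_at). S3 replicate 1 came within 0.1 of the lowest S1 array. The change of -0.41 ± 0.14 was not called (limma adjusted p = 0.0909), and it passed with the class block (-0.51 ± 0.10, limma adjusted p = 0.0014) but not with that block and median centring (-0.07, adjusted p = 0.886). Relative to the median of all genes it was -0.08, or -0.27 with quantile normalization. Gapdh cannot be read this way, because it is one of the 3 reference probe sets of the authors' scaling. Any change that the enzymes share with Gapdh would be partly removed by that scaling, and its reference probe set read 10.92 in S1 and 10.77 in S3 on average.

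Across the 17 probe sets, the size of the change depended on which one was read. Of 16 tested, 7 were lower and 0 higher, against 8.12% and 1.82% of all 22428 probe sets. Before adjustment 9 were lower and 0 higher, against 4380 and 1061 of the 22428. With the class block 11 were lower and 0 higher, against 34.2% and 4.86%. In 10 of the 16 all S3 arrays lay below all S1 arrays and in 1, the dimmest of Pfkl, above them, against 25.1% and 5.35% of all probe sets. The lower calls came from all 5 genes named above, 3 of them from Aldoa. The highest mean of any gene probe set was 11.50, so Aldoa, Ldha and the S1 reading of Pgam1 lay near the top of the scale. Whether changes are compressed there was not tested.

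**Figure D2:**
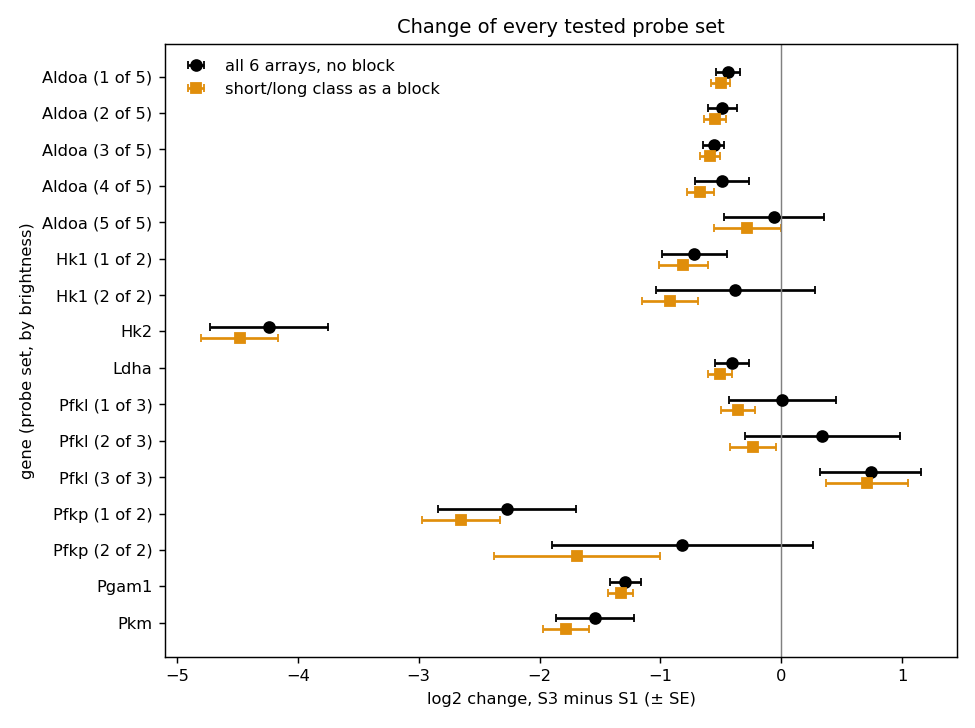
Log2 change (S3 minus S1, ± SE) of each of the 16 tested probe sets, ordered by brightness within a gene, over all 6 arrays (black circles) and with the short and long array class as a block (orange squares). The Hk2 probe set lies at -4.24, the 5 Aldoa probe sets between -0.56 and -0.06, and the Pfkl probe sets between 0.01 and 0.74 without the block.

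The sequence upstream of the enzymes with the clearest falls is shown because glycolytic genes are textbook targets of the hypoxia-inducible factor, whose binding core is ACGTG. Windows of 250 bases before the annotated start were read from RefSeq (GRCm38.p6) for all 10 genes, 17 windows in all, in the direction of the gene, with ACGTG on either strand in capitals. Hk2 has 2 matches in its window and Pgam1 has 1. Pkm has 1, in the second of its windows. The first window of Pklr, the red cell pyruvate kinase gene, has no such match and is shown with AGATAA, a sequence bound by GATA factors, in capitals.
Hk2, chr6:82774455-82774704, minus strand: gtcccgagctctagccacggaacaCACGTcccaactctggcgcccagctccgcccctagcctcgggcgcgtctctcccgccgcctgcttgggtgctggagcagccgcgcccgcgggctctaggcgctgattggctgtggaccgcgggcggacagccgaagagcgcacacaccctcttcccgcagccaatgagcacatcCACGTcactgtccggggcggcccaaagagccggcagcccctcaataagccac
Pgam1, chr19:41911621-41911870, plus strand: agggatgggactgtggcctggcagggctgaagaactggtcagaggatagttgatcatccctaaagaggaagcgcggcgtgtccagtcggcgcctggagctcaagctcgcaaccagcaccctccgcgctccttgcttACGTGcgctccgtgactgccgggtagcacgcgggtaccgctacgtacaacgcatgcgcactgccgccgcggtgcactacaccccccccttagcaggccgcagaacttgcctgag
Pkm, chr9:59656977-59657226, plus strand: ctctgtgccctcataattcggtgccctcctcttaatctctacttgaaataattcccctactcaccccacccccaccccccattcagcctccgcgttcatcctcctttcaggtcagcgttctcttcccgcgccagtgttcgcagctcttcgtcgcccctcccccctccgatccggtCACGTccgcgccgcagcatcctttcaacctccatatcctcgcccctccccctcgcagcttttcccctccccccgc
Pklr, chr3:89135892-89136141, plus strand: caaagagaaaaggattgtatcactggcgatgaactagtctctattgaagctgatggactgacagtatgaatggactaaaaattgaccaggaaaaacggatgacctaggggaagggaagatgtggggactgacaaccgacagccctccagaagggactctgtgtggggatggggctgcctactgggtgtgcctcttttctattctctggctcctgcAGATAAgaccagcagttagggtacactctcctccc
ACGTG on either strand was in 6 of the 17 windows (35.3%), from Hk2, Aldoa, Pgam1, Pkm and Ldha, against 16.6% of all 32851 windows of this length. Windows of a gene can overlap, so they are not independent. CACGTG, the site of MYC and MAX, which holds ACGTG on both strands, was in 1 of the 17 windows (Ldha) and in 6.02% of all. AGATAA was in 0 of the 17 windows and in 9.99% of all. A match is a description of the sequence and no sign of binding in these cells. Among the 4 called enzyme genes with a match the changes ran from -0.44 (Aldoa) to -4.24 (Hk2), and Pfkp fell with no match in its window. Of the enzymes not called, Ldha had 5 matches in window 1, and Hk1 and Pfkl had none. Slc2a1, called higher, had 1 ACGTG match. Pfkm, not called without the class block, had 2 in window 1 and 1 in window 2. Aldoc, Pgam2, Eno2, Eno3 and Ldhb had none. AGATAA was absent from window 2 of Pklr and present in windows 1, 2 and 3 of Pfkm. Whether ACGTG goes with the falls was not tested.

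Whether paralogs of one step changed unequally was asked within each array, where the scale of the array cancels. The difference between the log2 signals of 2 genes was taken per array and set to 0 at its S1 mean, since levels of different probe sets are not comparable. Of 10 pairs planned 6 could be read. In 4 of them the S1 and S3 arrays did not overlap, and for each of these the exact two-sided permutation test gave p = 0.1, the smallest that 3 against 3 arrays allow (0.15 after Benjamini-Hochberg adjustment over the 6 pairs), so none can reach the threshold. How often the difference between any other 2 genes separates the subsets was not tested. Of single genes, 29.5% had all S3 arrays below all S1 arrays and 5.81% above.

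Hk2 fell relative to Hk1 by far the most. The S1 arrays lay at -0.22, -0.33 and 0.54 and the S3 arrays at -3.58, -3.56 and -3.41, a difference of -3.52 ± 0.28 (SE, n = 3 arrays each), or an 11.5-fold unequal change. The S3 arrays were nearly equal. Pfkp against Pfkl lay at 0.42, -0.23 and -0.19 in S1 and -2.24, -2.52 and -2.08 in S3, a difference of -2.28 ± 0.25. The class block moved it little, to -2.30 ± 0.30. Over all combinations of tested probe sets it ran from -3.01 to -0.83. For Pfkm, the muscle type, against Pfkl the difference was -0.04 ± 0.09 with the brightest probe sets, with overlapping subsets (exact permutation p = 0.8). It ran from -0.77 to -0.04 over the probe set combinations, and with the mean over probe sets it was -0.40 and the subsets did not overlap. Pfkm itself read 7.06, 7.01 and 8.30 in S1 and 7.83, 6.59 and 7.85 in S3, and its own sign turned from -0.03 to 0.20 with median centring, 0.30 with quantile normalization and 0.24 with the trimmed mean. With the class block it was -0.45 ± 0.17 and passed (limma adjusted p = 0.0478), the 1 call among 20 other settings, and with the block and median centring it was not called (adjusted p = 0.997).

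Pklr rose relative to Pkm. The S1 arrays lay at -0.10, 0.40 and -0.30 and the S3 arrays at 1.05, 2.27 and 1.64, a difference of 1.65 ± 0.41, and of 1.65 to 2.63 over the probe set combinations. With the brightest probe sets most of this difference came from Pkm. Pklr itself read 10.29, 10.40 and 10.37 in S1 and 10.44, 10.45 and 10.49 in S3, a change of 0.11 ± 0.08 that was not called although the subsets did not overlap (limma adjusted p = 0.454). Its dimmer probe sets, below the top of the scale, changed by 0.65 ± 0.44 and 1.08 ± 0.74 and were not called. On these probe sets long arrays read higher than short ones by 1.12 and 1.95 on average. With the class block they changed by 0.27 ± 0.15 and 0.43 ± 0.21 and were not called. The range over probe set combinations given above was read without that block. Hepatocytes also express Pklr, and the part of the hepatocyte signal given above in its level was not tested. Ldhb, the other lactate dehydrogenase subunit, was above background on only 2 arrays of each subset, and its difference from Ldha (-0.15 ± 1.42) carries no direction. The pair could not be read with any precision.

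**Figure D3:**
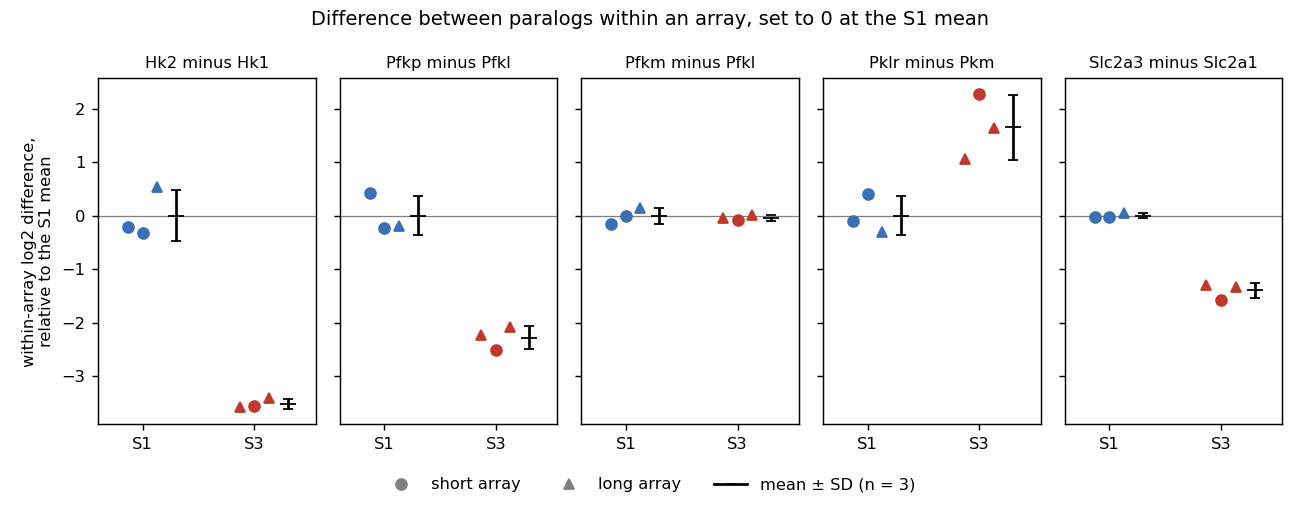
Within-array log2 difference between paralogs, set to 0 at the S1 mean, for 5 pairs on the 3 S1 (blue) and 3 S3 (red) arrays, with circles for short and triangles for long arrays and the mean ± SD. S3 lies at about -3.52 for Hk2 minus Hk1, -2.28 for Pfkp minus Pfkl, -0.04 for Pfkm minus Pfkl, 1.65 for Pklr minus Pkm and -1.40 for Slc2a3 minus Slc2a1.

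The other genes of glucose handling give the surroundings of these enzymes. Of 58 listed genes 45 were tested, and 2 rose, 11 fell and 32 were not called, with a median change of -0.33, equal to that of all genes. The class block called 4 higher and 25 lower, against 5.81% higher and 41.2% lower among all genes. The excess of falls depended on the scaling, with 1 higher and 2 lower under median centring, 3 and 5 under quantile normalization, 3 and 3 under the trimmed mean, and 5 and 5 under the class block with median centring. Over all 11959 genes these settings called 478 higher and 972 lower, 698 and 1127, 616 and 1137, and 1024 and 2013, in that order. The counts per list below stand against 12.8% lower and 2.53% higher among all genes. These lists, too, were chosen with earlier results of these data known. Counts without adjustment stand against 2896 lower and 638 higher of the 11959. Sugar transport changed in both directions. Slc2a1, the main glucose transporter of red cell precursors, read 10.23, 10.20 and 10.17 in S1 and 10.86, 10.94 and 10.86 in S3, and all 3 of its probe sets were called higher (0.69 ± 0.08 for the brightest, limma adjusted p = 0.0031, but 0.92 with adjusted p = 0.104 under median centring). Slc2a4, the insulin-responsive transporter of muscle and fat, read 0.73, 3.29 and 2.66 in S1 and 6.98, 6.61 and 7.13 in S3. It was the largest rise among the 45 genes (4.68 ± 0.68, limma adjusted p = 0.006), from a level above background on 2 of 3 S1 arrays, and it was called in all 20 other fits. A dimmer Slc2a4 probe set was above background on 0 S1 arrays and all 3 S3 arrays. Slc2a3, the high-affinity neuronal type, fell from 9.43, 9.42 and 9.46 to 8.81, 8.61 and 8.76 (-0.71 ± 0.15, limma adjusted p = 0.0199), a call kept in only 9 of 20 other fits. It was lost without S1 replicate 1 (adjusted p = 0.0794), S1 replicate 2 (adjusted p = 0.0768), S1 replicate 3 (adjusted p = 0.0546), S3 replicate 1 (adjusted p = 0.0574) or S3 replicate 3 (adjusted p = 0.0690). Median centring, quantile normalization and the trimmed mean lost the call too (limma adjusted p = 0.421, 0.117 and 0.228). The difference of Slc2a3 from Slc2a1 changed by -1.40 ± 0.09, and by -1.91 to -0.75 over the probe set combinations. Both ends of that range rest on dim Slc2a3 probe sets, the lower on one above background on 0 S3 arrays. The upper end rests on one above background on 2 arrays of each subset. Of the 6 transport genes tested, 2 rose, 1 fell and 3 were not called.

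In upper glycolysis 1 of 8 tested genes fell and 0 rose (3 and 0 without adjustment), a share near that of all genes. This was Pfkfb3, which makes the activator of phosphofructokinase, with 4.31, 3.80 and 5.20 in S1 and 2.30, 1.35 and 0.71 in S3 (-2.98 ± 0.60, limma adjusted p = 0.0181). Only 2 of the 3 S3 arrays were above background, so the size of this fall is uncertain. It was not called without S1 replicate 1 (-3.05, adjusted p = 0.0663) or S3 replicate 3 (-2.61, adjusted p = 0.0683). In lower glycolysis 1 of 7 fell and 0 rose (1 lower and 1 higher without adjustment), again near the share of all genes. This was Pgk1, phosphoglycerate kinase, whose brightest probe set read 10.51, 10.72 and 10.63 in S1 and 10.30, 10.22 and 10.12 in S3 (-0.41 ± 0.10, limma adjusted p = 0.0308). It fell little more than the median gene and was not called once any one of the 6 arrays was left out (adjusted p 0.0545 to 0.110). Bpgm, which makes the bisphosphoglycerate that lowers hemoglobin's oxygen affinity, was chosen after its values were seen. It read 9.11, 9.01 and 8.35 in S1 and 10.01, 9.61 and 9.48 in S3, with no overlap, and narrowly missed the threshold (0.88 ± 0.25, limma adjusted p = 0.0532, and 0.98 ± 0.20 with adjusted p = 0.00249 under the class block). Its dimmer probe sets changed more, by 1.41 and 1.97, and the mean over probe sets was called (1.42, adjusted p = 0.0493), as was the brightest with the 60th percentile filter (adjusted p = 0.0477) and with the replicate block (adjusted p = 0.020).

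Where pyruvate enters mitochondria, 2 of 10 tested genes fell and 0 rose, against 12.8% and 2.53% of all genes. Without adjustment 2 fell and 0 rose, against 2896 and 638 of all 11959 genes. Pdk1, a kinase that switches pyruvate dehydrogenase off, read 9.80, 9.89 and 9.96 in S1 and 9.10, 9.08 and 9.03 in S3 (-0.81 ± 0.12, limma adjusted p = 0.00712). It was called without each array in turn, but not with median centring (-0.58, adjusted p = 0.308) or the trimmed mean (-0.54, adjusted p = 0.147). The call was also lost with no intensity trend (adjusted p = 0.0578) and with the class block and median centring (-0.38, adjusted p = 0.307). With the mean over probe sets it was lost too (-0.71, adjusted p = 0.115). The dimmer Pdk1 probe sets changed by -0.87, -0.65 and -0.50 and were not called. Pdha1, a subunit of that dehydrogenase, fell by a like amount (-0.82 ± 0.20, limma adjusted p = 0.0356), but was not called once any one of the 6 arrays was left out (adjusted p 0.0612 to 0.0949). In the pentose phosphate pathway, which makes NADPH, 2 of 6 fell and 0 rose (3 and 0 without adjustment), against the same shares of all genes. Pgd changed by -1.03 ± 0.22 (limma adjusted p = 0.0223) and Pgls by -0.94 ± 0.25 (limma adjusted p = 0.0445). Pgd was not called without S1 replicate 1 (adjusted p = 0.0877), S1 replicate 3 (adjusted p = 0.0544) or S3 replicate 3 (adjusted p = 0.0620), and Pgls was not called without any array but S3 replicate 2 (adjusted p 0.106 to 0.149). Median centring lost the calls of Pdha1, Pgd and Pgls (limma adjusted p = 0.257, 0.134 and 0.288). Under the trimmed mean Pdha1 and Pgls were not called (limma adjusted p = 0.0686 and 0.213), and Pgls was also lost with quantile normalization (limma adjusted p = 0.256).

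Among regulators of glycolytic genes 4 of 8 fell and 0 rose, against 12.8% and 2.53% of all genes, with a median of -0.85. Before adjustment 6 fell and 0 rose, against 2896 and 638 of all 11959 genes. Hif1a, the oxygen-regulated subunit of the hypoxia-inducible factor, read 9.33, 9.68 and 9.41 in S1 and 8.68, 8.59 and 8.75 in S3 (-0.80 ± 0.17, limma adjusted p = 0.0197). Its mean over probe sets changed by only -0.20 (adjusted p = 0.906). The next brightest Hif1a probe set changed by -1.02 ± 0.30 without overlap, but was not called in the fit over probe sets (limma adjusted p = 0.0738). The dimmer ones overlapped between subsets, with changes of -0.04 ± 1.05 and 1.04 ± 1.67. Vhl, which marks Hif1a for destruction, changed by -1.13 ± 0.21 (limma adjusted p = 0.0143), and Egln3, an oxygen sensor above background on 1 S3 array, by -2.78 ± 0.76 (limma adjusted p = 0.0476). Max, the partner of MYC, changed by -0.58 ± 0.14 (limma adjusted p = 0.0357). Calls were lost without single arrays for Hif1a and Vhl (S1 replicates 1 and 2, S3 replicates 1 and 3, adjusted p 0.0510 to 0.0852). The same held for Max (any array, adjusted p 0.0702 to 0.110) and for Egln3 (any but S3 replicate 1, adjusted p 0.0813 to 0.125). Hif1a, Vhl and Max were also not called with median centring, quantile normalization or the trimmed mean. Their limma adjusted p there was 0.114 to 0.331, 0.115 to 0.173 and 0.159 to 0.565. Egln3 kept its call under these scalings (limma adjusted p 0.0313 to 0.0403). Myc, chosen after its values were seen, read 7.51, 7.32 and 9.32 in S1 and 6.93, 4.19 and 6.74 in S3. It was not called (-2.09 ± 0.85, limma adjusted p = 0.147) but passed with the class block (-2.85 ± 0.22) and the replicate block (adjusted p = 0.0468). Without S3 replicate 2 its change was -1.21 (adjusted p = 0.239).

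**Figure D4:**
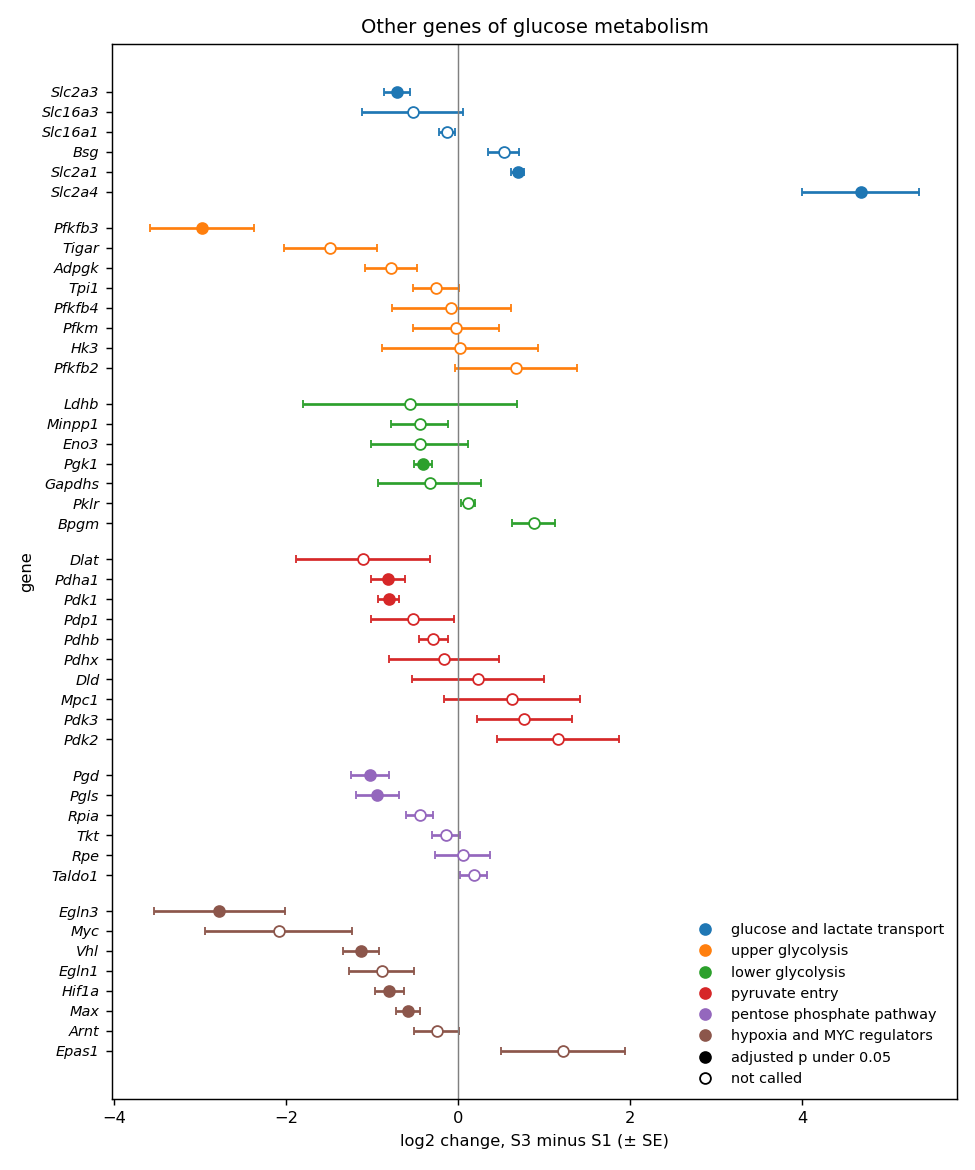
Log2 change (S3 minus S1, ± SE) of the 45 tested genes of glucose transport, upper and lower glycolysis, pyruvate entry, the pentose phosphate pathway and regulators, coloured by list. Filled points (2 rises, 11 falls) passed an adjusted p of 0.05, and Slc2a4 lies farthest to the right at 4.68.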

How the data were processed

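Amplified RNA from the sorted cells was labelled with biotin and hybridised to Affymetrix mouse arrays, per the labels. Per the design text of the series, the authors normalized MAS5 signals to the mean of 3 reference probe sets (Gapdh, actin and 18S RNA). The deposited values are on a log scale, as their range shows. The deposited values, made by the authors from these normalized signals, were taken as log2 by assumption, since no source names the base. Their size does not settle the base, because the signals had been scaled to reference probe sets. The MAS5 version is not given in the sources used here.

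Arrays were grouped by title. Of 45101 probe sets, 34945 non-control ones had 1 gene symbol. Tested genes had a mean above the 40th percentile of non-control probe sets, read by the brightest probe set (11959 genes), with a second fit over all 22428 such probe sets. The difference S3 minus S1 came from limma 3.58.1 under R 4.3.3 (eBayes after lmFit, prior variance following intensity). P-values are two-sided, adjusted by Benjamini-Hochberg over the whole table, and called under 0.05. Background was the 95th percentile per array of 27 bacterial control probe sets. Short and long arrays were split at an actin 5' minus 3' difference of -1.5. Fits were tested on simulated data. The enzymes and lists were chosen with earlier results of these data known. Named genes were every enzyme, both genes of readable paralog pairs and up to 4 called genes per list with the smallest p. Alternatives were other scalings, filters, an added constant, variance models, blocks, the classes alone, means over probe sets and leaving out each array. List genes with no probe set of their own are not analysed here.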

Additional observations from a re-analysis of the deposited data

How the results depend on the processing

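The fall of Hk2 and the rise of Slc2a4 were called under all 20 other settings. Counts below are of all genes called under a setting, which need not be the ones called as reported. Called enzymes numbered 5 as reported, 3 with median centring, with no intensity trend and with the mean over probe sets, and 2 to 5 when 1 array was left out. Called enzyme probe sets numbered 7 as reported, 3 with median centring, 4 with the trimmed mean, 4 with no filter, 2 with no intensity trend. With the class block they numbered 11, and 2 to 5 when 1 array was left out. Called pathway genes numbered 13 as reported, 3 with median centring, 8 with quantile normalization, 6 with the trimmed mean, 3 with no intensity trend, 29 with the class block, 22 on long arrays alone, 4 with the mean over probe sets, and 3 to 9 when 1 array was left out. Of all genes called, 16.5% were higher as reported, 33.0% with median centring, 38.2% with quantile normalization and 35.1% with the trimmed mean, which moved the median change of all genes from -0.33 to -0.10, -0.07 and -0.06. The causes were not tested.

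Of values not called, Pfkl turned sign with the class block (-0.36), on long (-0.28) or short arrays alone (-0.43), and without S1 replicate 1 (-0.11), S1 replicate 2 (-0.21), S3 replicate 1 (-0.20) or S3 replicate 3 (-0.17), a range of -0.21 to 0.41 without 1 array. Pfkm turned with median centring (0.20), quantile normalization (0.30), the trimmed mean (0.24), and without S1 replicate 3 (0.39) or S3 replicate 2 (0.39), a range of -0.26 to 0.39. Ldhb turned on long arrays alone (0.38) and without S3 replicate 2 (0.89), a range of -1.56 to 0.89. Pgk1, called as reported, turned with the class block and median centring together (0.04). The 4 separated paralog pairs were 4 to 5 without 1 array. The labels do not say that a replicate number marks a sort day. Deviations of same-numbered arrays correlated at -0.19, 0.36 and 0.43, and 4 of 6 arrays correlated best with their own number, a hint from the data only, so the numbers were not taken to pair the samples. Replicate 2 was short and replicate 3 long in both subsets, while replicate 1 was short in S1 and long in S3. A shared sort day and a shared array class therefore cannot be told apart in these correlations. With the replicate block the counts were 5 enzymes, 7 probe sets, 4 separated pairs and 15 pathway genes, and Bpgm and Myc were called. The long arrays include 1 S1 array and the short ones 1 S3 array, each assumed to vary like the other subset. Probe sets near background or near the top of the scale limit what Pfkp, Ldhb, Aldoa and Pklr can show.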
